A study of Homo sapiens with 6 samples.

Results

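The nuclear-encoded genes of the mitochondrial respiratory chain and ATP synthase, complexes I to V, were described in HLE cells depleted of the zinc-finger transcription factor ZNF281. HLE is an established, undifferentiated human hepatocellular carcinoma line. Genes were taken by symbol alone, with no measured value: NDUFA, NDUFB, NDUFC, NDUFS or NDUFV with a number, SDHA to SDHD, UQCR genes, CYC1, COX genes of the numbered families with an A, B or C suffix, and ATP5 genes. This gave 85 of 19503 named genes: 37 of complex I, 4 of complex II, 10 of complex III, 15 of complex IV and 19 of complex V. NDUFA4 and its paralog NDUFA4L2 were placed with complex IV, where NDUFA4 is now known to belong. Symbols are those of the deposited table, and several ATP5 genes have since been renamed (ATP5F1 is now ATP5PB). The symbols also took in genes that are not subunits, namely the readthrough genes NDUFC2-KCTD14 and ATP5J2-PTCD1, the assembly-related ATP5SL and its relative ATP5S, and the supercomplex factor COX7A2L. COX4I1, the main COX4 isoform, is not matched by these symbols. The subunits encoded by mitochondrial DNA were not analysed here.

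The tested groups were HLE cell lines carrying shRNA kd.1 or shRNA kd.2, which target different sites of the ZNF281 coding region, and the comparison line, Con, carried a control shRNA. All 3 groups had been infected with lentivirus at a multiplicity of infection of 10 and selected in puromycin for 7 days, and 2 libraries of total RNA were sequenced from each. The labels do not say whether the selected lines are clones or whether duplicates came from separate cultures, so each p-value reflects the scatter of these 6 libraries and no wider variation. ZNF281 itself was at 4.35 and 4.71 FPKM in kd.1, 4.37 and 4.47 FPKM in kd.2, and 9.52 and 8.43 FPKM in Con, where FPKM is fragments scaled to transcript length and library total. Among markers of differentiated hepatocytes, APOA1 and TTR were at 0.05 FPKM or less in every library. HNF4A was at 1.15 and 1.2 FPKM in kd.1, 0.45 and 0.51 FPKM in kd.2, and 0.55 and 0.6 FPKM in Con. SERPINA1 was higher, at 2.08 and 3.17 FPKM in kd.1, 1.88 and 2.17 FPKM in kd.2, and 2.18 and 2.72 FPKM in Con. The epithelial keratin gene KRT18 was at 499 and 547 FPKM in kd.1, 1008 and 1039 FPKM in kd.2, and 1123 and 1179 FPKM in Con. The leukocyte markers PTPRC and CD3E did not exceed 0.12 FPKM in any library.

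Complex I oxidises NADH and complex II oxidises succinate, and both pass electrons through ubiquinone to complex III. Complex III passes them by cytochrome c to complex IV, which reduces oxygen, and complex V uses the resulting proton gradient to make ATP. Mitochondrial DNA encodes some subunits of complexes I, III, IV and V, and nuclear genes encode the rest and all of complex II. Many nuclear subunit genes have promoters bound by NRF1, by the ETS factor GABP (also called NRF2) or by YY1, and liver cells are rich in mitochondria.

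Testing was limited to genes with 1 FPKM or more in 2 or more of the libraries, which 77 of the 85 met. They were abundant: summed over the tested genes, they held 14559 and 14753 FPKM in the kd.1 libraries, 13967 and 13565 FPKM in the kd.2 libraries, and 15045 and 18192 FPKM in the Con libraries. The median gene was at 129 FPKM in both kd.1 libraries, 133 and 129 FPKM in kd.2, and 139 and 157 FPKM in Con, against library medians between 12.6 and 13.2 FPKM over all 10851 tested genes. The kd.1, kd.2 and first Con sums lie near each other and the second Con sum stands above the rest. The genes left untested were NDUFA6, NDUFA4L2, COX6B2, COX7A1, COX8C, ATP5L2, ATP5J2-PTCD1 and UQCRHL.

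The second Con library differed from the first in the same direction at nearly all of these genes. Con rep2 was above Con rep1 in 69 of the 77 tested genes, against 46.7% of all tested genes, with a median log2 difference of 0.24 against -0.02 over all tested genes. The size went with transcript length. Among the 22 genes with a median coding transcript under 600 bases, the median log2 difference of Con rep2 from Con rep1 was 0.32 and all 22 were higher in Con rep2. For the 29 genes from 600 to under 1000 bases it was 0.30, for the 17 from 1000 to under 2000 bases 0.07, and for the 9 of 2000 bases or more 0.08. Over all tested genes the same classes gave 0.29, 0.20, 0.08 and -0.09, so short transcripts in general stood higher in Con rep2. Wide gaps were seen in short genes: NDUFA3, a membrane-arm subunit of complex I with a 407-base transcript, was at 56.5 FPKM in Con rep1 and 83.7 FPKM in Con rep2, and ATP5I, a membrane subunit of complex V with a 365-base transcript, was at 148 and 209 FPKM. The cytosolic ribosomal proteins, with a median length of 726 bases against 750 bases for the respiratory chain genes, showed the same difference: all 79 were higher in Con rep2, with a median of 0.28.

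**Figure D1:**
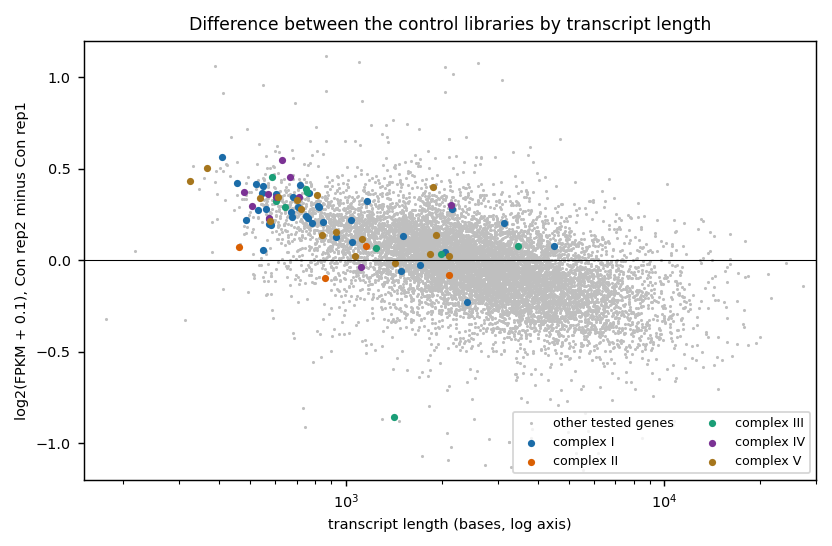
Difference between the control libraries, log2(FPKM + 0.1) of Con rep2 minus Con rep1 (vertical axis), against the median length of each gene's coding transcripts (horizontal log axis, bases); coloured points are respiratory chain genes by complex and grey points other tested genes. Respiratory chain genes under 600 bases all lie above 0, with a median of 0.32; no respiratory chain gene lies beyond the vertical axis, though some other genes do.

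Set against Con rep1 alone, the knockdown lines were close to it. The median over the 77 genes of log2(FPKM + 0.1) relative to Con rep1 was -0.06 and -0.01 in the kd.1 libraries, -0.09 and -0.13 in the kd.2 libraries, and 0.24 in Con rep2. The knockdown duplicates thus lay within 0.05 of each other at the median, and the gap between the control duplicates was larger than any gap between a knockdown library and Con rep1.

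**Figure D2:**
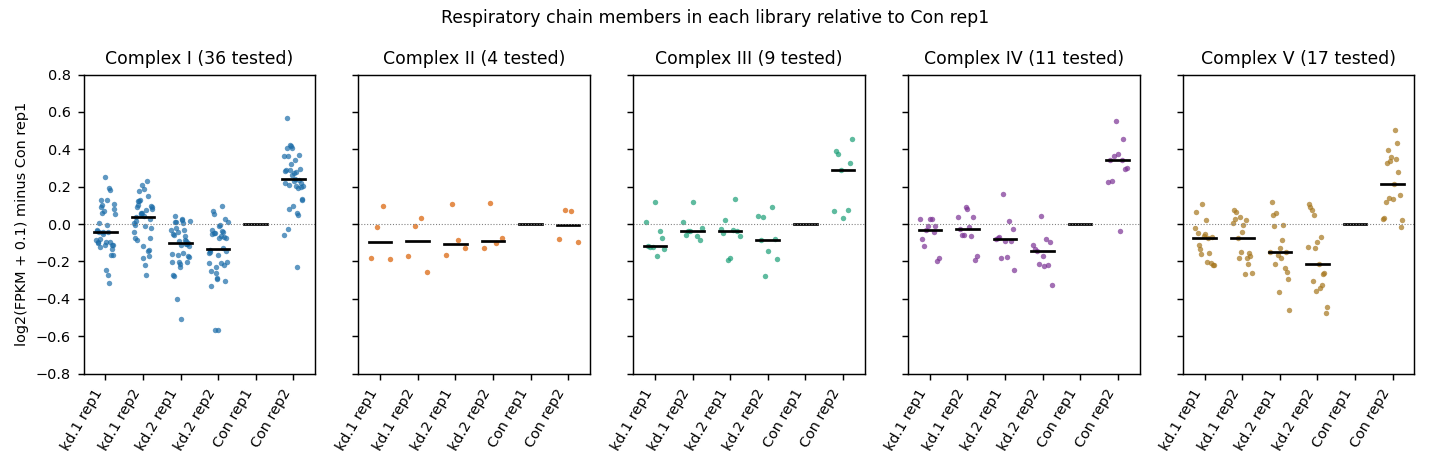
log2(FPKM + 0.1) of each tested gene relative to Con rep1 (vertical axis) in each library (horizontal axis), by complex; points are genes and black bars medians. The medians of complexes I, III, IV and V stand well above 0 in Con rep2 only; 3 points of UQCRC2 in complex III fall outside the axis.

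Relative to both controls together, 31 of the 77 tested genes fell in kd.2 and 0 rose (limma on log2(FPKM + 0.1), Benjamini-Hochberg adjusted p under 0.05 over all tested genes). This is 40.3% lower, against a background of 22.2% lower and 15.7% higher among all tested genes. In kd.1 10 fell and 1 rose, or 13.0% and 1.3%, against 13.4% lower and 15.8% higher, so that the share of lower genes in kd.1 was that of the background. Genes higher than Con were fewer than the background in both lines. The median over the 77 genes was -0.22 (log2) in kd.2 and -0.18 in kd.1, where all tested genes gave -0.03 and 0.02. At an unadjusted p under 0.05 the count of genes higher in kd.2 was also 0, and 45 were lower. For the mean of both knockdown lines, 26 (33.8%) fell and 0 rose, against 18.6% and 16.1%. At an unadjusted p under 0.05, 40 were lower and 1 higher for this mean. No share over all tested genes was counted at an unadjusted p, so the unadjusted counts here and below have no background. In total RNA from whole cultures, fewer cells with a transcript and less of it per cell cannot be told apart.

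These counts moved with the control library used. All 4 knockdown libraries lay below both Con libraries in 30 of the 77 genes, against 19.3% of all tested genes, and above both in 1 (ATP5B), against 19.0%. Without Con rep2, 31 genes were called lower and 0 higher in kd.2 (backgrounds 22.1% and 15.3%), and 12 lower and 4 higher in kd.1 (14.9% and 16.1%), with medians of -0.12 and -0.04. Without Con rep1, 62 were lower and 1 higher in kd.2 (30.7% and 26.2%), and 55 lower and 1 higher in kd.1 (23.2% and 27.8%), with medians of -0.36 and -0.30. For the mean of both lines, 60 were then lower and 1 higher (27.0% in each direction), and without Con rep2 15 were lower and 0 higher (16.1% and 13.5%). With a library of the compared line left out, the lone library is assumed to vary like the other groups. Lower calls in kd.2 then came to 4 without kd.2 rep1 and 2 without kd.2 rep2, or 5.19% and 2.6%, which is under the backgrounds of 7.52% and 9.11%. In kd.1 they came to 0 without kd.1 rep1 or rep2, against 6.06% and 6.03%, and to 4 without kd.2 rep1 or rep2, against 8.81% and 8.80%. Lower calls in kd.2 without kd.1 rep1 or rep2 came to 23, or 29.9%, against 18%.

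Transcript length and scaling moved them too. With the trend on transcript length removed from each library, 16 genes were lower and 5 higher in kd.2 (20.1% and 20.8% of the genes then tested), and 10 lower and 5 higher in kd.1 (17.3% and 16.8%), with medians of -0.04 and -0.05. The share lower in kd.2, 20.8%, was then that of the background. When each library was scaled to a common FPKM sum, 20 genes were lower and 3 higher in kd.2 (12.4% and 19.6%), 8 lower and 2 higher in kd.1 (7.84% and 17.5%), and 18 lower and 2 higher for the mean of both lines (9.57% and 20.5%). The cytosolic ribosomal proteins, a set of similarly short genes, had 29 of 79 (36.7%) lower in kd.2 and 2 (2.53%) in kd.1 in the unscaled comparison. The backgrounds there were 22.2% and 13.4%, and the medians of the ribosomal set -0.28 and -0.19. With the length trend removed, 18 of the 79 were lower and 5 higher in kd.2, and 8 lower and 1 higher in kd.1. Their medians were then -0.06 and -0.05.

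**Figure D3:**
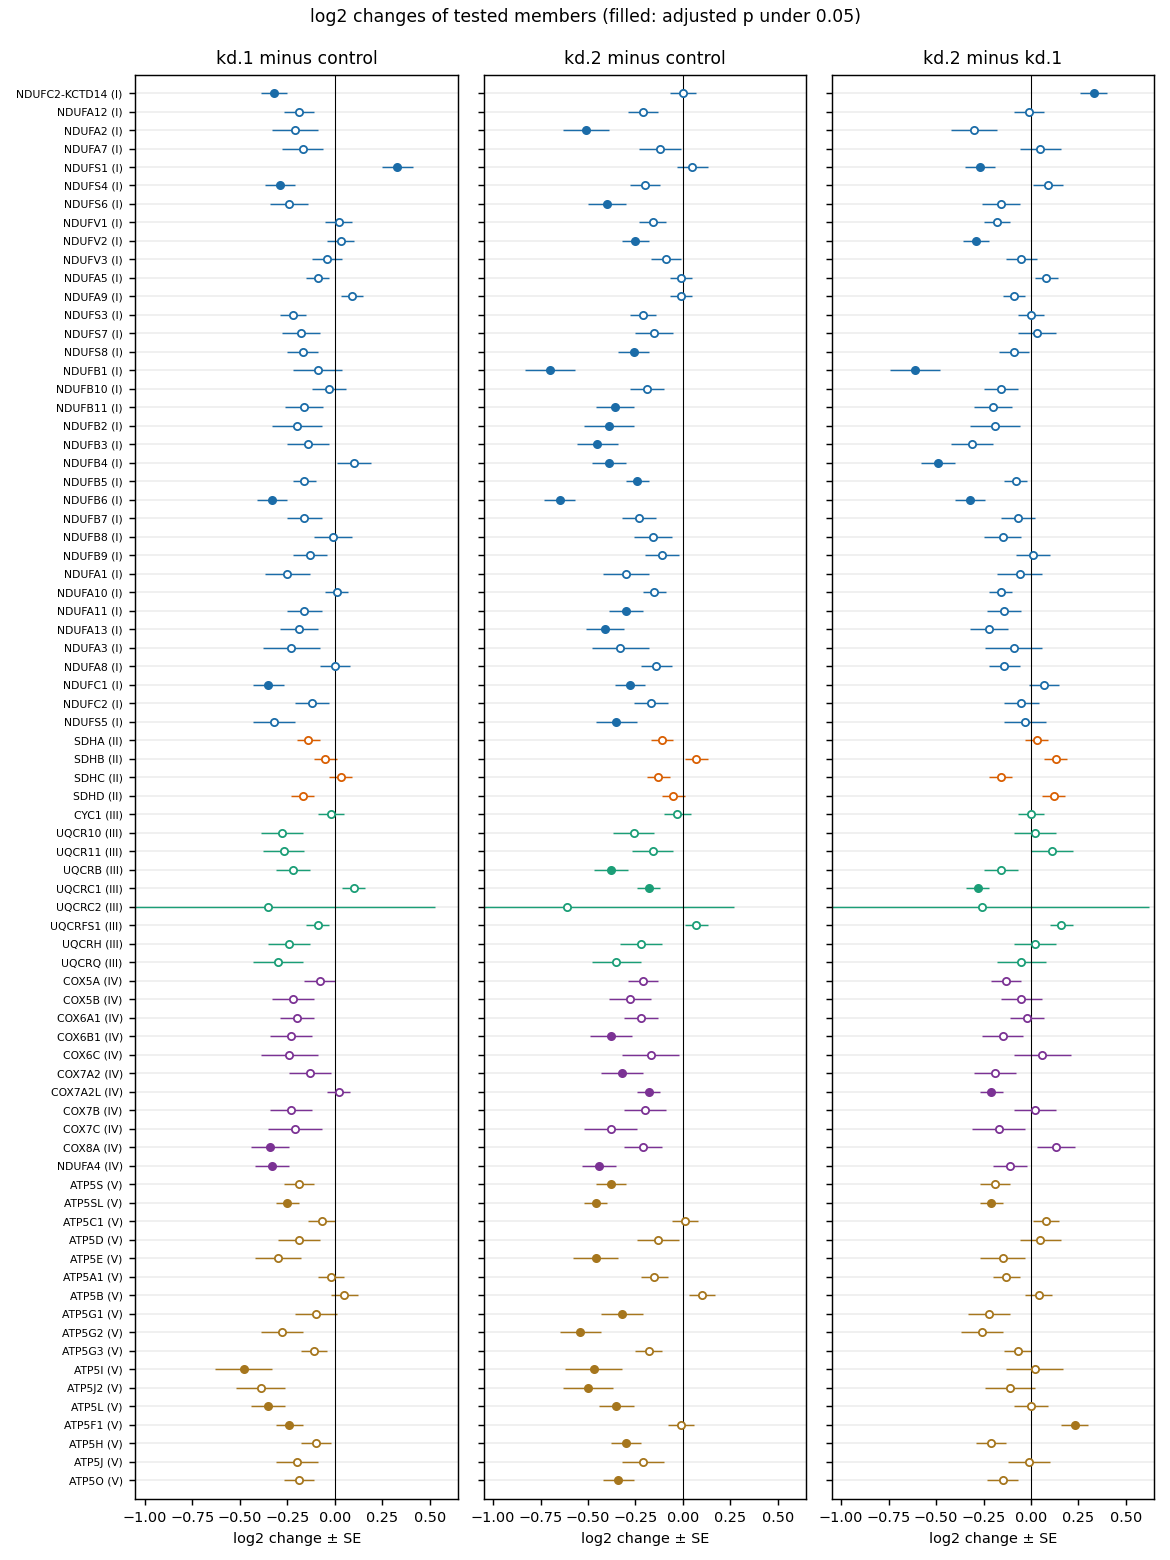
log2 change of log2(FPKM + 0.1) with its limma standard error (horizontal axes) for 76 of the 77 tested genes (vertical axis, complex in parentheses), in kd.1 minus Con, kd.2 minus Con and kd.2 minus kd.1; filled points have an adjusted p under 0.05 and colours mark complexes. The kd.2 minus Con panel has 31 filled points, all below 0, with the largest change at NDUFB1 (-0.70); the bars of UQCRC2 run past the axes.

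Of the 36 tested genes of complex I, 15 fell in kd.2 and 0 rose, while in kd.1 4 fell and 1 rose. The 4 in kd.1 include the readthrough gene NDUFC2-KCTD14, which is not a subunit. The lower shares were 41.7% in kd.2 and 11.1% in kd.1, against backgrounds of 22.2% and 13.4%; at an unadjusted p under 0.05 none was higher in kd.2. With the length trend removed, 9 of the 36 were lower and 1 higher in kd.2, against 20.1% and 20.8% of the genes then tested. In kd.1 3 were then lower and 4 higher, against 17.3% and 16.8%. The summed level of complex I was 4993 and 5141 FPKM in kd.1, 4650 and 4503 FPKM in kd.2, and 5093 and 6174 FPKM in Con. The N module, which binds NADH, had 3 of 9 tested genes lower in kd.2, and the Q module, which hands electrons to ubiquinone, 1 of 6. The proximal membrane arm had 4 of 9 lower in kd.2, and the distal membrane arm, whose tested genes are the 11 NDUFB accessory subunits, 7 of 11. Set against 22.2% of all tested genes, the Q module share of 16.7% was lower and those of the N module (33.3%), the proximal arm (44.4%) and the distal arm (63.6%) higher, each over few genes. With the length trend removed, 2 of 9 N-module genes and 0 of 6 Q-module genes were lower in kd.2. The proximal arm then had 2 of 9 lower and the distal arm 5 of 11, against 20.1% of the genes then tested.

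For the distal arm genes the median change was -0.14 (log2) in kd.1 and stood lower, at -0.36, in kd.2. Without Con rep2 these medians were 0.01 and -0.19, and with the length trend removed 0.02 and -0.12. NDUFB6 was at 74.4 and 77.7 FPKM in kd.1, 62.1 and 59.6 FPKM in kd.2, and 88.2 and 103.5 FPKM in Con. The 3 groups did not overlap for this accessory subunit, and kd.2 was lowest. It fell by 0.65 ± 0.08 (log2, SE) in kd.2 (adjusted p = 0.00088) and by 0.33 ± 0.08 in kd.1 (adjusted p = 0.0184). NDUFB1 was at 175 and 190.4 FPKM in kd.1, 127 and 113 FPKM in kd.2, and 168 and 225 FPKM in Con. Only the kd.2 libraries of NDUFB1 stood apart, since kd.1 lay between the controls. It fell by 0.70 ± 0.13 in kd.2 (adjusted p = 0.0043) and had a log2 change of -0.09 ± 0.13 in kd.1 (adjusted p = 0.617). NDUFB4, a small subunit of the same arm, was at 319 and 311 FPKM in kd.1, 229 and 219 FPKM in kd.2, and 268 and 321 FPKM in Con. Its kd.2 libraries lay below both controls and its kd.1 libraries within their range, and it fell by 0.39 ± 0.09 in kd.2 (adjusted p = 0.0114). NDUFB5, at 114 FPKM in both kd.1 libraries, 106 and 110.0 FPKM in kd.2, and 123 and 132 FPKM in Con, fell by 0.24 ± 0.06 in kd.2 (adjusted p = 0.0185), and this call was lost with the length trend removed (-0.06, adjusted p = 0.351). NDUFB2, NDUFB3 and NDUFB11 also fell in kd.2, by 0.39, 0.45 and 0.36 on the log2 scale, and NDUFB7 to NDUFB10 did not pass the test in either line. With the length trend removed, NDUFB6 (-0.43, adjusted p = 0.000233), NDUFB1 (-0.41, adjusted p = 0.000729), NDUFB3, NDUFB4 and NDUFB11 were still called lower in kd.2, and NDUFB4 was called higher in kd.1 (0.26, adjusted p = 0.00196).

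The 7 nuclear core subunits of complex I carry the flavin, the iron-sulphur clusters and the quinone site. Of these, 2 fell in kd.2 (28.6%, against 22.2% of all tested genes) and 1 rose in kd.1 (14.3%, against 15.8%). With so few genes, these shares are near the backgrounds. NDUFS1, the largest iron-sulphur subunit of the N module, was the only gene of all 77 called higher in kd.1; it lies outside the naming rule and was chosen after its value was seen. It was at 42.3 and 43.4 FPKM in kd.1, 34.9 and 36.1 FPKM in kd.2, and 37.0 and 31.5 FPKM in Con, so that only kd.1 stood above both controls, and it rose by 0.33 ± 0.08 on the log2 scale in kd.1 (adjusted p = 0.0181). Without kd.1 rep1 its change was 0.35 (adjusted p = 0.0739) and without kd.1 rep2 0.31 (adjusted p = 0.107). NDUFV2, an iron-sulphur subunit of the N module, was at 162 and 159 FPKM in kd.1, 133 and 130.3 FPKM in kd.2, and 149.9 and 164 FPKM in Con. Its kd.2 libraries were below all others, and it fell by 0.25 ± 0.07 in kd.2 (adjusted p = 0.0184), but with the length trend removed the change was -0.05 (adjusted p = 0.35). NDUFS8, of the Q module, fell by 0.26 ± 0.08 in kd.2 (adjusted p = 0.0309), and its change was 0.0 with the length trend removed (adjusted p = 0.995). NDUFV1, NDUFS3 and NDUFS7 did not pass the test against Con in either line.

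Among the other complex I genes, NDUFC1, a small membrane-arm subunit, fell in both lines. It was at 82.1 and 85.1 FPKM in kd.1, 89.2 and 85.7 FPKM in kd.2, and 99.2 and 114 FPKM in Con, with all knockdown libraries below both controls. The fall was 0.35 ± 0.08 on the log2 scale in kd.1 (adjusted p = 0.0114) and 0.28 ± 0.08 in kd.2 (adjusted p = 0.0209). NDUFS6, an N-module subunit needed late in assembly, had the highest level of complex I, at 579 and 593 FPKM in kd.1, 543 and 506 FPKM in kd.2, and 625 and 768 FPKM in Con, and it fell by 0.40 ± 0.10 in kd.2 (adjusted p = 0.017). NDUFA2, NDUFA11, NDUFA13 and NDUFS5 also fell in kd.2, by 0.51, 0.30, 0.41 and 0.35. NDUFS4, an N-module subunit, fell by 0.29 in kd.1 (adjusted p = 0.0289) and had a change of -0.20 in kd.2 (adjusted p = 0.0806). With the length trend removed, NDUFC1 kept its call in kd.1 (-0.21, adjusted p = 0.00694) and lost it in kd.2 (-0.06, adjusted p = 0.294). The calls of NDUFS4 in kd.1 (-0.13, adjusted p = 0.0584) and NDUFS5 in kd.2 (-0.08, adjusted p = 0.18) were also lost, and those of NDUFS6, NDUFA2, NDUFA11 and NDUFA13 in kd.2 were kept. NDUFA6 was listed at 0.23 and 0.34 FPKM in kd.1, 0.35 and 0.23 FPKM in kd.2, and at 0.91 and 0.00 FPKM in Con. Because NDUFA6 is a structural subunit that cells with complex I use, these low values may be failed estimates, and no change is drawn from them.

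No gene of complex II passed the test in any of the 4 comparisons. SDHA carries the flavin and SDHB the iron-sulphur clusters, while SDHC and SDHD anchor the complex in the membrane. SDHA was at 203 and 204 FPKM in kd.1, 205 and 209.96 FPKM in kd.2, and 229.8 and 217 FPKM in Con. All 4 knockdown libraries of SDHA lay below both controls, with log2 changes of -0.14 ± 0.06 in kd.1 (adjusted p = 0.137) and -0.11 ± 0.06 in kd.2 (adjusted p = 0.202). SDHB was at 129 FPKM in both kd.1 libraries, 141 FPKM in both kd.2 libraries, and 130.3 and 138 FPKM in Con. SDHC was at 83.2 and 79.6 FPKM in kd.1, 73.3 and 72.4 FPKM in kd.2, and 77.7 and 81.5 FPKM in Con. SDHD was at 113 and 108 FPKM in kd.1, 118 and 122 FPKM in kd.2, and 128 and 120.1 FPKM in Con. SDHB and SDHD were thus higher, and SDHC lower, in both kd.2 libraries than in both kd.1 libraries, by 0.13 ± 0.06 (adjusted p = 0.146), 0.12 ± 0.06 (adjusted p = 0.192) and -0.16 ± 0.06 (adjusted p = 0.0769). At an unadjusted p under 0.05 the complex gave 1 gene lower in kd.1, 0 in kd.2 and 1 lower in kd.2 against kd.1. The median log2 difference between Con rep2 and Con rep1 was -0.01 here, against 0.21 to 0.34 in the other complexes. Without Con rep2, the log2 change of SDHA was -0.18 in the kd.1 line and -0.15 in the kd.2 line. That of SDHD was then -0.22 in kd.1. Once the length trend was removed, SDHB was called higher in kd.2 (0.24, adjusted p = 0.00268), SDHC higher in kd.1 (0.23, adjusted p = 0.0453) and SDHA lower in kd.1 (-0.14, adjusted p = 0.0401).

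Of the 9 tested genes of complex III, 2 fell in kd.2, a share of 22.2% that equals the background, and none was called in kd.1, where 5 were lower and 0 higher at an unadjusted p under 0.05. The genes called in kd.2 were UQCRC1, a core protein, and UQCRB, a small subunit near the quinone site. UQCRC1 was at 184 and 185 FPKM in kd.1, 149.8 and 154 FPKM in kd.2, and 169.8 and 174 FPKM in Con. The 3 groups did not overlap, with kd.1 highest and kd.2 lowest, and the fall in kd.2 was 0.18 ± 0.06 on the log2 scale (adjusted p = 0.0442). UQCRB was at 43.0 and 45.7 FPKM in kd.1, 41.0 and 38.5 FPKM in kd.2, and 46.8 and 57.2 FPKM in Con, and fell by 0.38 ± 0.09 in kd.2 (adjusted p = 0.0151). Both calls were lost with the length trend removed, at -0.11 (adjusted p = 0.0678) for UQCRC1 and -0.14 (adjusted p = 0.0709) for UQCRB.

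The catalytic subunits of complex III did not pass the test against Con: CYC1, the cytochrome c1 gene, was at 278 and 279 FPKM in kd.1, 271 and 284 FPKM in kd.2, and 276 and 289.7 FPKM in Con. UQCRFS1, the Rieske iron-sulphur protein gene, was at 119.7 and 118 FPKM in kd.1, 135 and 131 FPKM in kd.2, and 123 and 129.7 FPKM in Con. Its kd.2 libraries were above all others, yet the difference of 0.16 ± 0.06 from kd.1 did not pass (adjusted p = 0.0752). UQCRH, the hinge protein gene, had the highest level, at 577 and 574 FPKM in kd.1, 594 and 576 FPKM in kd.2, and 609 and 763 FPKM in Con. UQCRQ, with a 586-base transcript, was at 78.3 and 84.5 FPKM in kd.1, 82.1 and 75.5 FPKM in kd.2, and 85.8 and 118 FPKM in Con, and UQCR10 was at 102 and 106 FPKM in kd.1, 107 and 104 FPKM in kd.2, and 110.5 and 145 FPKM in Con. For both of these short genes the knockdown libraries lay just below Con rep1 and far below Con rep2. UQCRHL, a copy of UQCRH that could share its reads, was listed at 0.67 FPKM or less. UQCRC2, the other core protein, was listed at 1.19 and 0.45 FPKM in kd.1, 1.32 and 0.25 FPKM in kd.2, and 1.35 and 0.70 FPKM in Con, and like NDUFA6 may be a failed estimate.

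In complex IV, 4 of 11 tested genes fell in kd.2 and 2 in kd.1 (36.4% and 18.2%, against backgrounds of 22.2% and 13.4%), with none higher; at an unadjusted p under 0.05 none was higher in either line and 8 were lower in kd.2. The 4 in kd.2 include the supercomplex factor COX7A2L, which is not a subunit. With the length trend removed, 1 of the 11 was lower in kd.2 and 2 in kd.1, against 20.1% and 17.3% of the genes then tested. NDUFA4, a late-joining subunit of the enzyme, was the one called lower in both lines. It was at 103 and 104 FPKM in kd.1, 98.6 and 93.2 FPKM in kd.2, and 117 and 144 FPKM in Con. All knockdown libraries were below both controls, and the fall was 0.33 ± 0.09 on the log2 scale in kd.1 (adjusted p = 0.032) and 0.44 ± 0.09 in kd.2 (adjusted p = 0.00846). With the length trend removed it was -0.33 (adjusted p = 0.0154) and -0.38 (adjusted p = 0.00796). Its paralog NDUFA4L2, known from other cells as a hypoxia-induced gene, was at 0.77 FPKM or less throughout.

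COX8A, the ubiquitous isoform of the smallest subunit, was at 304 FPKM in both kd.1 libraries, 341 and 326 FPKM in kd.2, and 348 and 427 FPKM in Con, and it fell by 0.34 ± 0.10 in kd.1 (adjusted p = 0.0309). COX6B1, which lies on the side of the enzyme that faces cytochrome c, was at 282 and 277 FPKM in kd.1, 255 and 248 FPKM in kd.2, and 288 and 371 FPKM in Con, and it fell by 0.38 ± 0.11 in kd.2 (adjusted p = 0.0252). Both genes had all knockdown libraries below both controls, with Con rep1 nearer to them than Con rep2. After removal of the length trend, COX8A was still called lower in kd.1 (-0.15, adjusted p = 0.0158), while COX6B1 was not in kd.2 (-0.12, adjusted p = 0.0671). COX7A2, the isoform used in liver and most tissues, was at 165 and 172 FPKM in kd.1, 152 and 144 FPKM in kd.2, and 162 and 210.2 FPKM in Con, and its fall of 0.32 ± 0.11 in kd.2 (adjusted p = 0.049) became -0.13 without Con rep2 (adjusted p = 0.0797) and -0.04 with the length trend removed (adjusted p = 0.526). COX7C, the most abundant gene of the complex, was at 650.5 and 674 FPKM in kd.1, 616 and 563 FPKM in kd.2, and 656 and 899.97 FPKM in Con, and its change of -0.38 ± 0.14 in kd.2 did not pass (adjusted p = 0.0526). COX6A1 and COX7B did not pass in any comparison. The tissue isoforms were near 0: COX7A1, the muscle isoform, reached 0.12 FPKM, COX6B2 and COX8C, known from testis, 0.47 and 0.05 FPKM. Outside the symbols used here, COX4I1 was at 520.4 and 547 FPKM in kd.1, 510.3 and 509 FPKM in kd.2, and 537 and 643 FPKM in Con, and its log2 changes of -0.14 in kd.1 and -0.21 in kd.2 did not pass (adjusted p = 0.293 and 0.117).

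In complex V, 10 of 17 tested genes fell in kd.2 and 4 in kd.1, with none higher, also at an unadjusted p under 0.05. These are 58.8% and 23.5%, against backgrounds of 22.2% and 13.4%. They include ATP5SL in both lines and ATP5S in kd.2, which are not subunits. The other falls were in the membrane subunits, the c ring and the stalks, and the catalytic head gave no call. With the length trend removed, 6 of the 17 were lower and 2 higher in kd.2, against 20.1% and 20.8% of the genes then tested. In kd.1 4 were then lower and 0 higher, against 17.3% and 16.8%. ATP5B, the catalytic beta subunit gene, was at 682 and 686 FPKM in kd.1, 706 and 703 FPKM in kd.2, and 652 and 666 FPKM in Con. It was the only gene of the 77 with all 4 knockdown libraries above both controls, and its log2 changes were 0.05 ± 0.07 in kd.1 (adjusted p = 0.592) and 0.10 ± 0.07 in kd.2 (adjusted p = 0.305). After removal of the length trend it was called higher in kd.2 (0.18, adjusted p = 0.00486). ATP5A1, the alpha subunit gene, was at 407 and 415 FPKM in kd.1, 372 and 379 FPKM in kd.2, and 413 and 420.2 FPKM in Con, and did not pass (adjusted p = 0.847 and 0.109). These are among the longer genes of the set, and their control libraries differed by 0.03 on the log2 scale.

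The membrane subunits ATP5I, ATP5J2 and ATP5L, known as e, f and g, all fell in kd.2, and ATP5I and ATP5L also in kd.1. ATP5I was at 129 and 123 FPKM in kd.1, 139 and 117 FPKM in kd.2, and 148 and 209 FPKM in Con. It fell by 0.48 ± 0.15 in kd.1 (adjusted p = 0.0408) and by 0.47 ± 0.15 in kd.2 (adjusted p = 0.0387). Without Con rep2 these falls were smaller, at 0.23 and 0.21. ATP5L was at 138 and 137 FPKM in kd.1, 143 and 132 FPKM in kd.2, and 159 and 193 FPKM in Con, and fell by 0.35 ± 0.09 in both lines (adjusted p = 0.0239 in kd.1 and 0.0195 in kd.2). Without Con rep2, the change of ATP5L was -0.21 in each line. With the length trend removed, ATP5L was called in kd.1 (-0.21, adjusted p = 0.011) and not in kd.2 (-0.12, adjusted p = 0.0754). ATP5J2, at 639 and 628 FPKM in kd.1, 604 and 567 FPKM in kd.2, and 712 and 962 FPKM in Con, had the highest mean level of complex V over the 6 libraries, although ATP5B was above it in all 4 knockdown libraries. It fell by 0.50 ± 0.13 in kd.2 (adjusted p = 0.0172). All knockdown libraries of these 3 genes were below both controls. With the length trend removed, all 3 genes were called lower in kd.1 and 1 of them in kd.2. Their control difference, with a median of 0.43, was larger than that of the complex as a whole, 0.21.

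The c ring that turns in the membrane is encoded by 3 genes whose mature proteins are the same. ATP5G2 was at 426 and 401 FPKM in kd.1, 345 and 347 FPKM in kd.2, and 445 and 569.6 FPKM in Con, with no overlap between groups. It fell by 0.54 ± 0.11 in kd.2 (adjusted p = 0.00701), and by 0.32 with the length trend removed (adjusted p = 0.00253). ATP5G1, at 353 and 337 FPKM in kd.1, 293 and 300.1 FPKM in kd.2, and 328 and 415 FPKM in Con, fell by 0.32 ± 0.11 in kd.2 (adjusted p = 0.0442), and with the length trend removed its change was -0.05 (adjusted p = 0.46). ATP5G3, the least abundant, was at 60.7 and 61.1 FPKM in kd.1, 57.5 and 58.7 FPKM in kd.2, and 62.9 and 69.1 FPKM in Con, and did not pass (adjusted p = 0.056 in kd.2). Of the stalk genes, ATP5E, ATP5H and ATP5O fell in kd.2, by 0.46, 0.30 and 0.34. ATP5F1, the peripheral stalk b subunit gene, fell in kd.1, by 0.24 ± 0.07 (adjusted p = 0.0285).

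ATP5SL and ATP5S carry the ATP5 name without being subunits. ATP5SL, now known as an assembly factor of the distal arm of complex I, was at 37.1 and 36.0 FPKM in kd.1, 31.4 and 31.7 FPKM in kd.2, and 43.2 and 43.8 FPKM in Con. The 3 groups did not overlap, and the controls differed by 0.02 on the log2 scale. It fell by 0.46 ± 0.06 in kd.2 (adjusted p = 0.000904) and by 0.25 ± 0.06 in kd.1 (adjusted p = 0.0141). ATP5S was at 8.3 and 8.58 FPKM in kd.1, 7.87 and 6.94 FPKM in kd.2, and 9.68 and 9.57 FPKM in Con, and fell by 0.38 ± 0.08 in kd.2 (adjusted p = 0.00993). ATP5L2, a near-identical copy of ATP5L, did not exceed 0.09 FPKM. Over the 53 calls made on respiratory chain genes in kd.1, in kd.2 and between the lines, 2 held in all 15 alternative settings: the falls of ATP5SL and NDUFB6 in kd.2. The comparisons of kd.1 and kd.2 with control share the same control libraries.

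**Figure D4:**
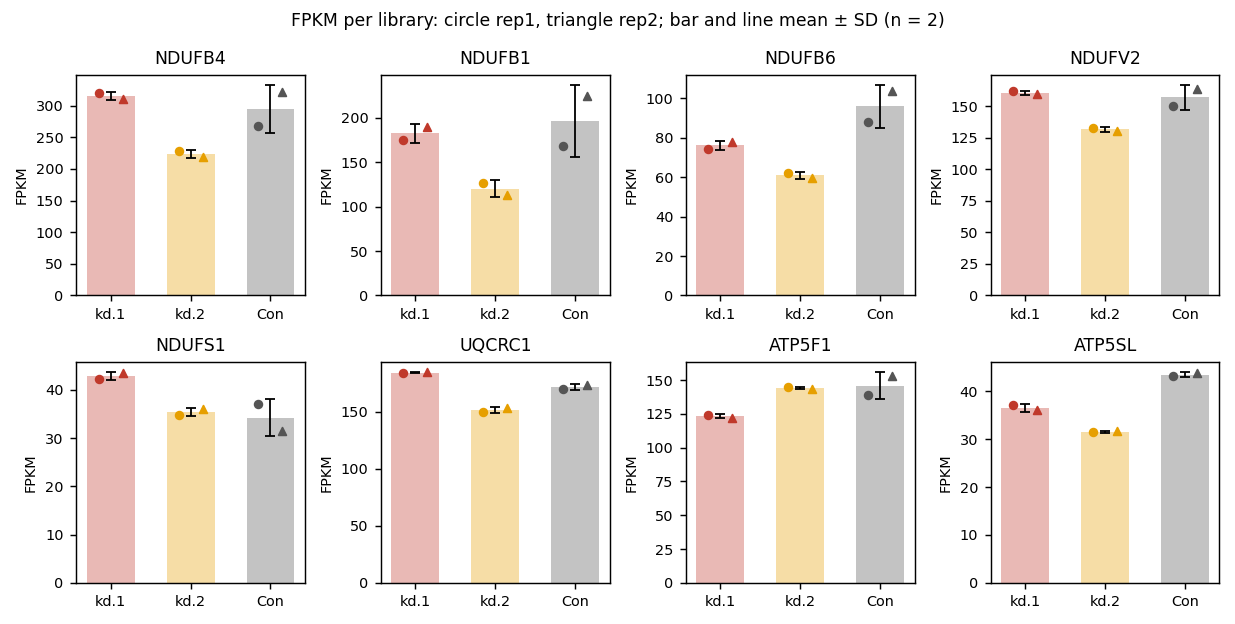
FPKM (vertical axes, from 0) of 8 genes in kd.1, kd.2 and Con; circles are rep1, triangles rep2, bars the mean and lines the SD (n = 2 libraries). The kd.2 libraries are lowest for NDUFB4, NDUFB1, NDUFB6, NDUFV2, UQCRC1 and ATP5SL, kd.1 is highest for NDUFS1 and lowest for ATP5F1, and the Con duplicates of NDUFB1 lie far apart.

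The direct comparison of the lines does not use the levels of the control libraries, which enter only the estimate of the spread. In kd.2 against kd.1, 9 of the 77 genes were lower and 2 higher, against backgrounds of 20.3% and 11.9%; 16 were lower and 3 higher at an unadjusted p under 0.05. The median log2 difference was -0.09, against -0.05 over all tested genes. Both kd.2 libraries lay below both kd.1 libraries in 42 of the 77 genes, against 45.1% of all tested genes, and above both in 13, against 32.0%. The shares were 11.7% called lower and 2.6% called higher, both under the background, while 54.5% had both kd.2 libraries lower, above it, and 16.9% both higher, under it.

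The lower genes included, from complex I, NDUFB1, NDUFB4 and NDUFB6 of the distal arm and the core subunits NDUFV2 and NDUFS1. NDUFB4 differed by -0.49 ± 0.09 on the log2 scale (adjusted p = 0.00412), NDUFB1 by -0.61 ± 0.13 (adjusted p = 0.00747), and NDUFB6 by -0.32 ± 0.08 (adjusted p = 0.0173). The per-library values above show for each of these that both kd.2 libraries were below both kd.1 libraries. NDUFV2 differed by -0.29 ± 0.07 (adjusted p = 0.0115) and NDUFS1 by -0.27 ± 0.08 (adjusted p = 0.0317). UQCRC1 of complex III differed by -0.28 ± 0.06 (adjusted p = 0.00807) and ATP5SL by -0.21 ± 0.06 (adjusted p = 0.0243). COX7A2L, which joins complexes III and IV into supercomplexes, was at 79.1 and 76.8 FPKM in kd.1, 68.8 and 66.4 FPKM in kd.2, and 77.7 and 75.9 FPKM in Con. Its kd.2 libraries were the lowest while kd.1 and Con overlapped, and kd.2 differed from kd.1 by -0.21 ± 0.06 (adjusted p = 0.0275).

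The 2 higher genes were ATP5F1 and NDUFC2-KCTD14. ATP5F1 was at 124.5 and 122 FPKM in kd.1, 145 and 144 FPKM in kd.2, and 139 and 153 FPKM in Con, with kd.1 below all other libraries, and differed by 0.23 ± 0.07 (adjusted p = 0.0317). NDUFC2-KCTD14, a readthrough gene that shares its first exons with NDUFC2 and could share its reads, was at 20.4 and 21.0 FPKM in kd.1, 24.9 and 27.2 FPKM in kd.2, and 25.4 and 26.5 FPKM in Con, and differed by 0.33 ± 0.07 (adjusted p = 0.00772). NDUFC2 itself differed by -0.05 ± 0.09 (adjusted p = 0.739), so its values are uncertain where the authors' counting could split reads. Fewer calls were made with a library of either line left out: 2 lower and 0 higher without kd.1 rep1 (backgrounds 10.8% and 5.93%), 1 and 1 without kd.1 rep2 (10.4% and 5.65%), 2 and 1 without kd.2 rep1 (8.33% and 4.64%), and 0 and 0 without kd.2 rep2 (10.3% and 4.88%). Without Con rep1 there were 33 lower and 6 higher, against backgrounds of 30.4% and 20.4%, and without Con rep2 34 lower and 6 higher, against backgrounds of the same size. These shares, 42.9% and 44.2% lower, were above the background for lower genes. Leaving out a control library changes only the estimated spread here. With the length trend removed, 11 were lower and 10 higher (19.7% and 20.5%), and with a common FPKM sum 9 and 3 (15.1% and 10.1%). The NDUFB4 difference ranged from -0.52 to -0.46 over the libraries left out. It stayed called without kd.1 rep1 (adjusted p = 0.0333), kd.1 rep2 (adjusted p = 0.0251) or kd.2 rep1 (adjusted p = 0.0409) and was not called without kd.2 rep2 (adjusted p = 0.0547). NDUFB1 was not called without kd.1 rep2 (-0.55, adjusted p = 0.0519) or kd.2 rep2 (-0.52, adjusted p = 0.0782), and was called with any other library left out.

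The promoter windows of NDUFB4, NDUFV2, UQCRC1 and ATP5F1 are shown because these genes differed between the lines, 3 of them lower and 1 higher in kd.2, and because each holds a searched motif. Each window runs from 250 bases before to 50 bases after the RefSeq gene start on GRCh38.p14, is written 5′ to 3′ on the gene's strand, and has the matched motifs in capitals. The NDUFB4 window, at chr3:120596086-120596385 on the plus strand, holds an NRF1 site overlapped by its shorter core. The NDUFV2 window, at chr18:9102449-9102748 on the plus strand, holds a G-rich site of the kind bound by ZNF281, on the opposite strand. The UQCRC1 window, at chr3:48609597-48609896 on the minus strand, holds the shorter NRF1 core and a YY1 site. The ATP5F1 window, at chr1:111449214-111449513 on the plus strand, holds a YY1 site on the opposite strand. NDUFB1, NDUFB6, COX7A2L, ATP5SL and NDUFC2-KCTD14 were also called between the lines, and their windows hold none of the searched motifs. NDUFS1 was called too, and its window, not shown, holds an ETS site. The windows shown were picked for their motifs, and a link between motifs and the difference between the lines was not tested.
NDUFB4: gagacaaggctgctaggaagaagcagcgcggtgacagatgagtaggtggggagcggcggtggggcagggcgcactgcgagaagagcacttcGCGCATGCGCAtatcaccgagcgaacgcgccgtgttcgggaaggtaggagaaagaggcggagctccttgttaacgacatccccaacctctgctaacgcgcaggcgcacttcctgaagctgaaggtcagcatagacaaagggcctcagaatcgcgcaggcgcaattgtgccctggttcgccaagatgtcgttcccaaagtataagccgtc
NDUFV2: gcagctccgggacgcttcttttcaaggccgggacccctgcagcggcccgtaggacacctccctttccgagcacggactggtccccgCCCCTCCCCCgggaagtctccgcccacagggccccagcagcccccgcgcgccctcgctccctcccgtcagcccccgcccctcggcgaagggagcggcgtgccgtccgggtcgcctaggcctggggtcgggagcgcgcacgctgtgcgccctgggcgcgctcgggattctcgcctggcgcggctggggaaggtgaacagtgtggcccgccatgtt
UQCRC1: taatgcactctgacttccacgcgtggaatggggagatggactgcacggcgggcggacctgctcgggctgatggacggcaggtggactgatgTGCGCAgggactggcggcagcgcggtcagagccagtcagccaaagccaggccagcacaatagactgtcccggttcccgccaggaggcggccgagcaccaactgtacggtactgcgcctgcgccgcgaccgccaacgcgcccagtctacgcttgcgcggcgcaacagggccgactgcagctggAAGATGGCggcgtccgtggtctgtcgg
ATP5F1: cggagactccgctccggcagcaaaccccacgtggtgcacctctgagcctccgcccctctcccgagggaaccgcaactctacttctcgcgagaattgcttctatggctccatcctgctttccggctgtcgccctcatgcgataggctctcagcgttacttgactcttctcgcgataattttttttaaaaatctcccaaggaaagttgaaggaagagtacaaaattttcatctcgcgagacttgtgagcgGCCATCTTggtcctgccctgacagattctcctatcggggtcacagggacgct

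Promoters of 67 of the 85 genes were found in the RefSeq table, and both strands of the 300-base windows were searched. The full NRF1 site, the one in capitals in the NDUFB4 window without its last base, was in 4 of the 67 (5.97%), against 2.56% of the promoters of tested genes and 1.36% of all promoters in the table. Its shorter core TGCGCA, which can overlap the full site, was in 20 (29.9%), against 14.4% and 8.42%. The ETS site CCGGAAG was in 18 (26.9%), against 21.2% and 10.7%, and the YY1 site AAGATGGC in 11 (16.4%), against 6.06% and 3.03%. The G-rich site of the kind reported for ZNF281, whose other strand is in capitals in the NDUFV2 window, was in 2 (2.99%), those of NDUFV2 and SDHA, against 4.23% and 3.10%. These matches describe letters in a window and say nothing about binding in these cells.

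Genes that build or regulate the chain were counted from lists of textbook members. Of 17 complex I assembly factors, 6 fell and 0 rose in kd.2, while 2 fell and 3 rose in kd.1, and in kd.2 against kd.1 7 were lower and 1 higher (41.2% and 5.88%, against 20.3% and 11.9%). The backgrounds are those given above for all tested genes, 22.2% lower and 15.7% higher in kd.2 and 13.4% and 15.8% in kd.1, against which 35.3% and 11.8% of these factors fell. Once the length trend was removed, 3 fell and 3 rose in kd.2, and 1 fell and 6 rose in kd.1. Of all genes then tested, 20.1% fell and 20.8% rose in kd.2, and 17.3% fell and 16.8% rose in kd.1. NDUFAF3, which assembles the Q module, was at 85.9 and 86.0 FPKM in kd.1, 51.6 and 54.9 FPKM in kd.2, and 60.4 and 79.2 FPKM in Con, and kd.2 was lower than kd.1 by 0.69 (log2 difference -0.69, adjusted p = 0.00221). Of 32 assembly factors of complexes II, III and IV, 12 (37.5%) fell and 3 rose in kd.2, and 4 (12.5%) fell and 2 rose in kd.1. After removal of the length trend, 7 fell and 5 rose in kd.2 (20.1% and 20.8% of all genes), and 4 fell and 7 rose in kd.1 (17.3% and 16.8%). COX20, a chaperone of the mitochondrially encoded COX2 subunit, was at 17.3 and 16.2 FPKM in kd.1, 30.9 and 29.4 FPKM in kd.2, and 35.2 and 37.2 FPKM in Con. It fell by 1.11 on the log2 scale in kd.1 (adjusted p = 3.19e-05) and by 0.26 in kd.2 (adjusted p = 0.0174). No respiratory chain gene called lower in kd.1 fell as far, the furthest being ATP5I. COX15, which makes the haem of complex IV, fell in kd.2, by 0.34 (adjusted p = 0.00421). Of 6 complex V genes outside the ATP5 names, 4 (66.7%) fell in kd.2 and 2 (33.3%) in kd.1, against backgrounds of 22.2% and 13.4%. This list is not limited to genes that build or regulate the complex, and C14orf2 and USMG5 were among the 4. After removal of the length trend, 1 fell in kd.2 and 2 in kd.1, against 20.1% and 17.3% of all tested genes, and 1 rose in kd.1.

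Of 16 tested regulators of respiratory chain transcription, 8 rose and 0 fell in kd.2, and 3 rose and 0 fell in kd.1, or 50% and 18.8% higher against backgrounds of 15.7% and 15.8%. After removal of the length trend, 7 rose and 0 fell in kd.2, and 3 rose and 3 fell in kd.1. Of all genes then tested, 20.8% rose and 20.1% fell in kd.2, and 16.8% rose and 17.3% fell in kd.1. TFAM, which packages and transcribes mitochondrial DNA, was at 34.3 and 37.0 FPKM in kd.1, 42.1 and 46.9 FPKM in kd.2, and 16.1 and 12.7 FPKM in Con. All knockdown libraries were above both controls, with log2 changes of 1.31 in kd.1 (adjusted p = 0.00013) and 1.63 in kd.2 (adjusted p = 8.21e-05). NRF1 did not pass the test in either line (-0.23, adjusted p = 0.0895 in kd.1, and 0.04, adjusted p = 0.751 in kd.2), and of the GABP genes GABPB1 rose in kd.2, by 0.27 (adjusted p = 0.022). PPARGC1A, the coactivator of mitochondrial biogenesis, was at 2.02 and 2.03 FPKM in kd.1, 1.17 and 1.10 FPKM in kd.2, and 1.24 and 1.05 FPKM in Con, and rose in kd.1 by 0.78 (adjusted p = 0.00357). A list of 20 genes held the tricarboxylic acid cycle, its entry enzymes and the cytosolic enzymes ACO1 and MDH1. Of these 20, 5 (MDH1 among them) fell and 2 rose in kd.2, and 3 fell and 2 rose in kd.1. The lower shares of 25% in kd.2 and 15% in kd.1 were near the backgrounds of 22.2% and 13.4%. After removal of the length trend, 2 fell and 2 rose in kd.2 (20.1% and 20.8% of all genes), and 5 fell and 3 rose in kd.1 (17.3% and 16.8%). CS, citrate synthase, often used as a measure of mitochondrial content, was at 109 and 105 FPKM in kd.1, 66.5 and 67.7 FPKM in kd.2, and 118 and 113 FPKM in Con. It fell by 0.78 in kd.2 (adjusted p = 0.000128) further than any called respiratory chain gene there, with -0.11 in kd.1 (adjusted p = 0.194). CYCS, cytochrome c, did not pass in either line (adjusted p = 0.945 in kd.1 and 0.16 in kd.2).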

How the data were processed

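Total RNA of 6 libraries, 2 in each of 3 groups, had been sequenced. Named in the submitters' processing notes are RSEM 1.2.12, HISAT2 2.0.4 and Bowtie2 2.2.5, and, as genome builds, hg38 and GRCh38.p11; the notes as used here give no step for any of them. The authors deposited 1 table of 21372 features; its values are not whole numbers and sum to between 512672.6 and 575886.9 per library, so the deposited values were taken as FPKM, which is inferred from the values and stated in no label. The depth of sequencing is unknown, so intervals for counting error are not given.

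The 1869 features named BGI_novel were left out. The 10851 genes with 1 FPKM or more in 2 or more libraries were fitted as log2(FPKM + 0.1) in limma 3.58.1 (R 4.3.3). The model had a mean for each group, all 6 libraries, a variance prior that follows intensity, and robust estimation; it left 3 residual degrees of freedom, which moderation brought to a median of 8.64. P-values were adjusted by the Benjamini-Hochberg method over all tested genes within each comparison and called under 0.05. With 2 libraries a group, an exact permutation test could not reach that threshold. The test was checked on simulated data in which scatter was independent between genes and libraries. No shift shared by short genes, such as that of Con rep2, was simulated for it, so the check does not cover such a shift. Tests made for counts were left out, since these values are normalized. Coordinates and lengths (median over coding transcripts) came from GENCODE release 29 on GRCh38, and promoters from RefSeq on GRCh38.p14. For the length-trend alternative, a loess curve of span 0.3 on log length was removed from each library in 10760 genes with a length.

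Genes named in the text are the SDH genes, genes called alike in both lines, genes called between the lines with opposite changes against control, the smallest p-values per complex (3 for the mean of both lines, 2 between the lines), the highest and lowest level per complex, and the isoforms; other genes are named as examples chosen after their values were seen. The members and gene lists were chosen with earlier results of these data known. Some genes that enter the counts are not reported here by name.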

Additional observations from a re-analysis of the deposited data

Results flagged for a closer look

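The knockdown lines differed from each other, with changes against control of opposite sign, at the genes NDUFB4, NDUFV2, UQCRC1 and COX7A2L. Log2 differences of kd.2 minus kd.1 were -0.49 for NDUFB4 (adjusted p = 0.00412), -0.29 for NDUFV2 (adjusted p = 0.0115), -0.28 for UQCRC1 (adjusted p = 0.00807) and -0.21 for COX7A2L (adjusted p = 0.0275), from limma on 2 libraries a line. Against control, the change in kd.1 was 0.10, 0.03, 0.10 and 0.02 in the same order of genes, and none of these passed the test (adjusted p between 0.226 and 0.806). The change in kd.2 was -0.39, -0.25, -0.18 and -0.18, and all of these passed. Both kd.2 libraries were below both kd.1 libraries at each of the 4 genes. The control libraries, shared by both lines, differed by 0.26, 0.13, 0.03 and -0.03 (Con rep2 minus Con rep1). With the length trend removed, the difference between the lines was -0.41, -0.20, -0.21 and -0.12, and the last of these did not pass (adjusted p = 0.141). The cause was not tested.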

How the results depend on the processing

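The medians of the respiratory chain genes stayed below 0 in all 4 comparisons under every alternative run. Removing the length trend moved them to -0.038 in kd.2, -0.022 in kd.2 against kd.1 and -0.023 for the mean of both lines, with or without the replicate block, and moved the median difference between controls to 0.049; median ratio scaling gave -0.053 in kd.2 against kd.1. Counts under the length trend were 5 higher in kd.1 (6.49% against 16.8% of all genes). In kd.2 they were 5 higher and 16 lower (6.49% and 20.8%, against 20.8% and 20.1%). In kd.2 against kd.1 10 were higher (13.0% against 20.5%). For the mean 4 were higher and 13 lower (5.19% and 16.9%, under the 18.5% and 19.1% of all genes). With the block as well the counts were 5 higher in kd.1 (6.49% against 16.8%). In kd.2 they were 3 higher and 15 lower (3.9% and 19.5%, against 20.8% and 20.4%). In kd.2 against kd.1 10 were then higher (13.0% against 20.7%). For the mean 3 were then higher and 12 lower (3.9% and 15.6%, against 18.6% and 19.2%). A common FPKM sum gave 2 higher and 8 lower in kd.1, 3 higher and 20 lower in kd.2, and 2 higher and 18 lower for the mean. The backgrounds for that scaling are given above. With no filter on low values there were 4 lower in kd.1 (4.71% against 5.68%), 1 higher in kd.2 against kd.1 (1.18% against 5.31%) and 13 lower for the mean (15.3% against 8.07%); with no intensity trend or robust step, 5 (6.49% against 11.5%), 1 (1.3% against 10.3%) and 15 (19.5% against 16.4%). Median ratio scaling gave 5 lower in kd.2 against kd.1 (6.49% against 17.0%). Counting subunits only, chosen after seeing the data, gave 1 of 72 higher there (1.39% against 11.9%). NDUFS8 in kd.2 turned to 0.0 (adjusted p = 0.995) with the length trend removed, with or without the block.

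Leaving out each library in turn gave medians from -0.302 to -0.042 in kd.1, -0.357 to -0.115 in kd.2, -0.108 to -0.079 in kd.2 against kd.1 and -0.329 to -0.08 for the mean. Higher counts ran from 0 to 4, 0 to 1, 0 to 6 and 0 to 1 in the same order, and lower counts from 0 to 55, 2 to 62, 0 to 34 and 4 to 60. The libraries share only a replicate number: correlations of same-numbered libraries' deviations from their group means were 0.183 between kd.1 and kd.2, 0.022 between kd.1 and Con, and -0.0874 between kd.2 and Con. With a replicate block, 9 were lower and 1 higher in kd.1 (11.7% lower against 12.5%), 25 and 0 in kd.2 (32.5% against 21.3%), 9 and 2 in kd.2 against kd.1 (11.7% against 19.6%), and 22 and 0 for the mean (28.6% against 17.7%). The causes of these moves were not tested, and depth is unknown.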
